A study of Mus musculus with 48 samples.

Results

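The mRNAs of 10 genes for decapping and 5' to 3' mRNA decay were followed in mouse embryonic stem cells: Dcp2, Dcp1a, Dcp1b, Edc3, Edc4, Patl1, Ddx6, Lsm14a, Lsm14b and Xrn1. They were taken by gene symbol from a table of 20171 genes, and each was found once. In RNA immunoprecipitation and sequencing (RIP-seq), beads carrying an HA antibody recover a tagged protein from a lysate, and the RNA that comes with it (IP) is sequenced beside the RNA of the lysate (input). The study applied it to tagged Tnrc6a, a GW182 protein, with and without the genes Ago2 and Upf1, to see which transcripts Tnrc6a is bound to. What is described here is therefore the mRNAs that encode the decay factors, not the proteins.

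All 4 genotypes were 129S6/SvEvTac embryonic stem cells that carried the yGlob GFP_5xT71BS reporter and a stably transfected FLAG-Cas9::T2A::Blasticidin construct, grown on gelatin with LIF. Untagged cells were the parental control. HA-Tnrc6a cells had an HA-AVI tag on endogenous Tnrc6a, and the Ago2-/- and Upf1-/- cells were made from tagged cells. Each genotype had 3 inputs and 3 IPs in each of 2 experiments, numbered 3 and 4, which gives 48 libraries. Cells came from triplicate dishes and equal protein was given to the beads. How many clones stand behind a genotype was not stated, so p-values measure the spread between dishes. The columns of the table name the genotype and fraction and are numbered from 1 to 6. Numbers 1 to 3 were taken as experiment 3 and numbers 4 to 6 as experiment 4, which is an inference.

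An mRNA is protected at its 5' end by a cap. Dcp2 is the hydrolase that removes the cap, Dcp1a and Dcp1b are the alternative forms of its activating partner, and Edc3, Edc4 and Patl1 are scaffold and enhancer proteins that bring the enzyme to its substrates. Ddx6 is an RNA helicase that links deadenylation to decapping and translational repression, Lsm14a and Lsm14b bind Ddx6 in P-bodies, and Xrn1 is the exonuclease that digests decapped RNA from the 5' end. GW182 proteins bind Argonaute and recruit the CCR4-NOT deadenylase, which in turn binds Ddx6, so these factors act downstream of microRNA-guided silencing.

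Library totals were 15383953 to 19595405 counts for inputs and 11471544 to 18344233 for IPs in experiment 3, and 26458831 to 37179105 and 25724085 to 73845953 in experiment 4. The 8 embryonic stem cell markers examined were all present in inputs (summed level 6400 to 8089 CPM), while the summed endoderm, fibroblast, neural and trophoblast markers did not pass 42 CPM, with Col1a2 and Foxa2 at 0 in some inputs. The planned markers Postn (fibroblast), Cdx2 and Elf5 (trophoblast) were not found. That left Krt7 alone for trophoblast, and of the fibroblast markers Thy1 had 18.6 to 33.5 CPM. CPM is a gene's count as a share of its library, with library sizes scaled by the TMM method. Ago2 mRNA was lower in Ago2 knockout than in HA-Tnrc6a inputs (log2 -1.21 ± 0.03 SE). For Upf1 the inputs labelled as its knockout held more mRNA than HA-Tnrc6a inputs (0.58 ± 0.03), so these cells are named by their label throughout. Tnrc6a mRNA was 219-fold more recovered from HA-Tnrc6a than from untagged cells.

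The 10 genes differed widely in lysate level. Per kilobase of the gene length given in the table, the median over the 6 HA-Tnrc6a inputs was highest for Lsm14a (34.2 CPM per kb) and Ddx6 (29.0 CPM per kb), followed by Lsm14b with 25.0. Patl1 (17.1), Edc4 (15.2) and Dcp2 (15.0 CPM per kb) lay close together, and the range of Dcp2, from 11.6 to 19.1, overlapped those of Patl1, Edc4 and Edc3. Edc3 stood at 10.8 and Dcp1a at 6.83 CPM per kb, while Xrn1 (2.55) and Dcp1b (1.27 CPM per kb) were lowest. Ddx6 and Lsm14b overlapped as well, and the other neighbours in this order did not. Dcp1a, with 5.22 to 8.22 CPM per kb, did not reach the lowest Edc3 library (10.2). Of the pair of activating subunits Dcp1a was thus the more abundant in every HA-Tnrc6a input, since Dcp1b did not pass 1.56 CPM per kb. The order between genes depends on the lengths given, such as 18585 bases for Xrn1. Its median in CPM was 47.4, beside 56.2 for Dcp1a and 8.06 for Dcp1b, and Ddx6 (233) was above Lsm14a (210). In bulk lysates a smaller share of expressing cells and less RNA per cell cannot be told apart.

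The order was different in the IPs of the same cells. Lsm14b (95.7) and Dcp2 (88.1 CPM per kb) had the highest medians, with overlapping ranges, and both lay above every library of the other 8 genes. Dcp1a reached 19.1 CPM per kb and Dcp1b 8.71 CPM per kb, so that Dcp1b was above Xrn1 (3.39) and its range of 7.21 to 9.72 overlapped that of Edc3 (8.95 to 10.6 CPM per kb). Lsm14a, the highest of the 10 in lysate per kilobase, stood at 23.7 CPM per kb in these IPs. Here too the order depends on length, with 2892 bases for Lsm14b and 8702 for Dcp2. In CPM the median of Dcp2 was 767 against 277 for Lsm14b, and that of Xrn1 63.1 against 55.2 for Dcp1b.

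**Figure D1:**
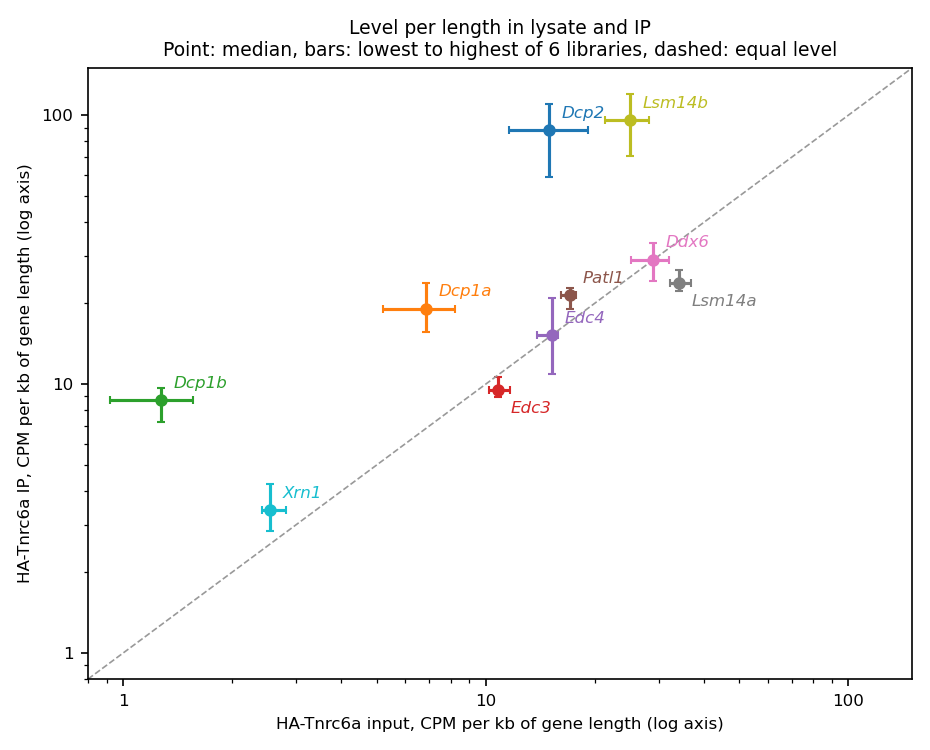
Level of the 10 mRNAs per kilobase of gene length in HA-Tnrc6a inputs (horizontal axis, CPM per kb, log scale) and IPs (vertical axis, same unit and scale). Points are medians and bars the lowest to the highest of 6 libraries. Dcp2, Lsm14b, Dcp1a and Dcp1b lie far above the dashed line of equal level, and Lsm14a lies below it.

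Recovery with Tnrc6a was measured as the log2 ratio of IP to input in tagged cells less the same ratio in untagged cells, whose beads hold what binds without a tag. All levels are shares of a library, and no measure of the amount of RNA on the beads was used. A recovery below 0 thus means a smaller share relative to the other RNAs, not by itself less RNA on the beads. Of the 10 mRNAs, 7 passed an adjusted p of 0.05 in HA-Tnrc6a cells (edgeR quasi-likelihood F-test, Benjamini-Hochberg over all 19993 genes tested), 6 higher and 1 lower. Of all genes tested 62.0% passed, 29.8% higher and 32.2% lower, so a call in itself sets a gene little apart here, and the sizes say more. Dcp1b, Dcp2, Lsm14b and Dcp1a were recovered 3.38-fold to 6.85-fold above untagged cells, and 91.3% to 96.8% of genes had lower values. Ddx6 and Xrn1 were recovered 1.44-fold and 1.41-fold above untagged cells, and Lsm14a was 1.38-fold lower. Edc3, Edc4 and Patl1 did not pass. The median of the 10 was 0.51 on the log2 scale, beside -0.10 for all genes tested.

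The catalytic subunit Dcp2 (ENSMUSG00000024472, GRCm38.p6 chromosome 18, 44380500 to 44424969) had 758, 641 and 513 CPM in the HA-Tnrc6a IPs of experiment 3 and 954, 810 and 775 CPM in those of experiment 4. Untagged IPs had 109, 105 and 113 CPM, and then 180, 162 and 178 CPM. HA-Tnrc6a inputs had 101, 104 and 103 CPM in experiment 3 and 159, 166 and 158 CPM in experiment 4. Every tagged IP thus lay above every untagged IP and every input, and untagged IPs were near the inputs. The recovery was 2.40 ± 0.09 on the log2 scale (adjusted p = 1.21e-21), with 2.51 in experiment 3 and 2.28 in experiment 4.

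The activating subunit Dcp1a (ENSMUSG00000021962, chromosome 14, 30479486 to 30527056) had 151, 143 and 129 CPM in the HA-Tnrc6a IPs of experiment 3 and 196, 180 and 164 CPM in experiment 4. Untagged IPs had 32.6, 43.3 and 37.3 CPM and then 59.4, 65.4 and 62.9 CPM. The groups did not overlap, and the recovery was 1.76 ± 0.09 (adjusted p = 7.17e-18). Its paralog Dcp1b (ENSMUSG00000041477, chromosome 6, 119175253 to 119221614) had the largest recovery of the 10 from the lowest lysate level. Its HA-Tnrc6a inputs held 6.44, 7.74 and 5.85 CPM in experiment 3 and 9.29, 8.38 and 9.90 CPM in experiment 4. Its IPs held 60.6, 57.9 and 52.5 CPM and then 61.6, 51.1 and 45.7 CPM, against 6.26 to 8.96 CPM in the 6 untagged IPs, without overlap. The recovery was 2.78 ± 0.13 (adjusted p = 2.7e-19), 3.06 in experiment 3 and 2.49 in experiment 4. In the RefSeq annotation Dcp1a overlaps Cacna1d and Dcp1b overlaps Cacna1c, and whether counting used the strand is not given in the sources used here. These calcium channel genes had few counts themselves, 2 to 66 per library for Cacna1d and 0 to 32 for Cacna1c, while Dcp1a had at least 423 and Dcp1b at least 78. RefSeq also places Gm35566 over Dcp1a, Gm30671 over Ddx6, Gm12764 and Gm12774 over Lsm14a, and Gm16794 over Xrn1. Gm22272, Gm31092 and Mir6994 overlap Patl1. Counts of these further neighbours were not examined.

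The enhancers and scaffolds of decapping were not recovered in this way. Edc3 (ENSMUSG00000038957, chromosome 9, 57708540 to 57750163) had a recovery of -0.04 ± 0.06 and Patl1 (ENSMUSG00000046139, chromosome 19, 11912399 to 11945096) of -0.10 ± 0.10. Edc4 (ENSMUSG00000036270, chromosome 8, 105880873 to 105893225) averaged -0.15 ± 0.08, but with opposite signs in the experiments, -0.47 in experiment 3 and 0.18 in experiment 4. In the IPs of HA-Tnrc6a cells Edc4 averaged 65.7 ± 5.26 CPM in the first and 107 ± 9.78 CPM in the second of these experiments (mean ± SD, n = 3), against 80.7 ± 5.30 and 84.2 ± 1.21 CPM in the inputs. Scaling by library totals lowered the median of all genes in this comparison from -0.10 to -0.25. Edc3, Edc4 and Patl1 then passed as lower (log2 -0.19, -0.30 and -0.26), so that all 10 passed, 6 higher and 4 lower. With that scaling 13097 of 19993 genes passed, 5121 higher and 7976 lower.

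The paralogs Lsm14a and Lsm14b moved in opposite directions. Lsm14b (ENSMUSG00000039108, chromosome 2, 180024900 to 180035466) had 346, 315 and 297 CPM in the HA-Tnrc6a IPs of experiment 3 and 257, 212 and 204 CPM in experiment 4. Untagged IPs had 60.2, 81.1 and 74.8 CPM and then 54.7, 58.9 and 51.8 CPM. Lsm14a (ENSMUSG00000066568, chromosome 7, 34344144 to 34390026) had 146, 149 and 163 CPM in HA-Tnrc6a IPs and 212, 237 and 241 CPM in untagged IPs of experiment 3. In experiment 4 the same groups had 142, 137 and 145 CPM and 213, 191 and 196 CPM. Neither gene's tagged and untagged IPs overlapped. Recovery was 2.07 ± 0.09 for Lsm14b (adjusted p = 5.43e-20) and -0.47 ± 0.06 for Lsm14a (adjusted p = 6.69e-08), and both values kept their sign in each experiment.

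The partner helicase Ddx6 (ENSMUSG00000032097, chromosome 9, 44602983 to 44640731) was recovered by 0.53 ± 0.09 (adjusted p = 3.62e-06) over untagged cells, although its tagged IPs stood close to their inputs. HA-Tnrc6a IPs had 206, 195 and 202 CPM in experiment 3 and 264, 269 and 259 CPM in experiment 4, beside inputs of 202 to 214 and 252 to 258 CPM. Untagged IPs were lower, with 112, 159 and 167 CPM and then 175, 176 and 189 CPM. Against its own lysate the log2 ratio of Ddx6 was -0.04 ± 0.03 in experiment 3 and 0.06 ± 0.02 in experiment 4 in HA-Tnrc6a cells, and -0.54 ± 0.20 and -0.50 ± 0.05 in untagged cells. The exonuclease gene Xrn1 (ENSMUSG00000032410, chromosome 9, 95954750 to 96057806) had 58.1, 52.8 and 57.3 CPM in HA-Tnrc6a IPs and 25.4, 36.6 and 43.1 CPM in untagged IPs of experiment 3. In experiment 4 it had 68.0, 79.3 and 72.5 CPM against 56.1, 59.5 and 56.0 CPM, and the groups did not overlap within an experiment. Its recovery was 0.50 ± 0.11 (adjusted p = 0.000242).

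**Figure D2:**
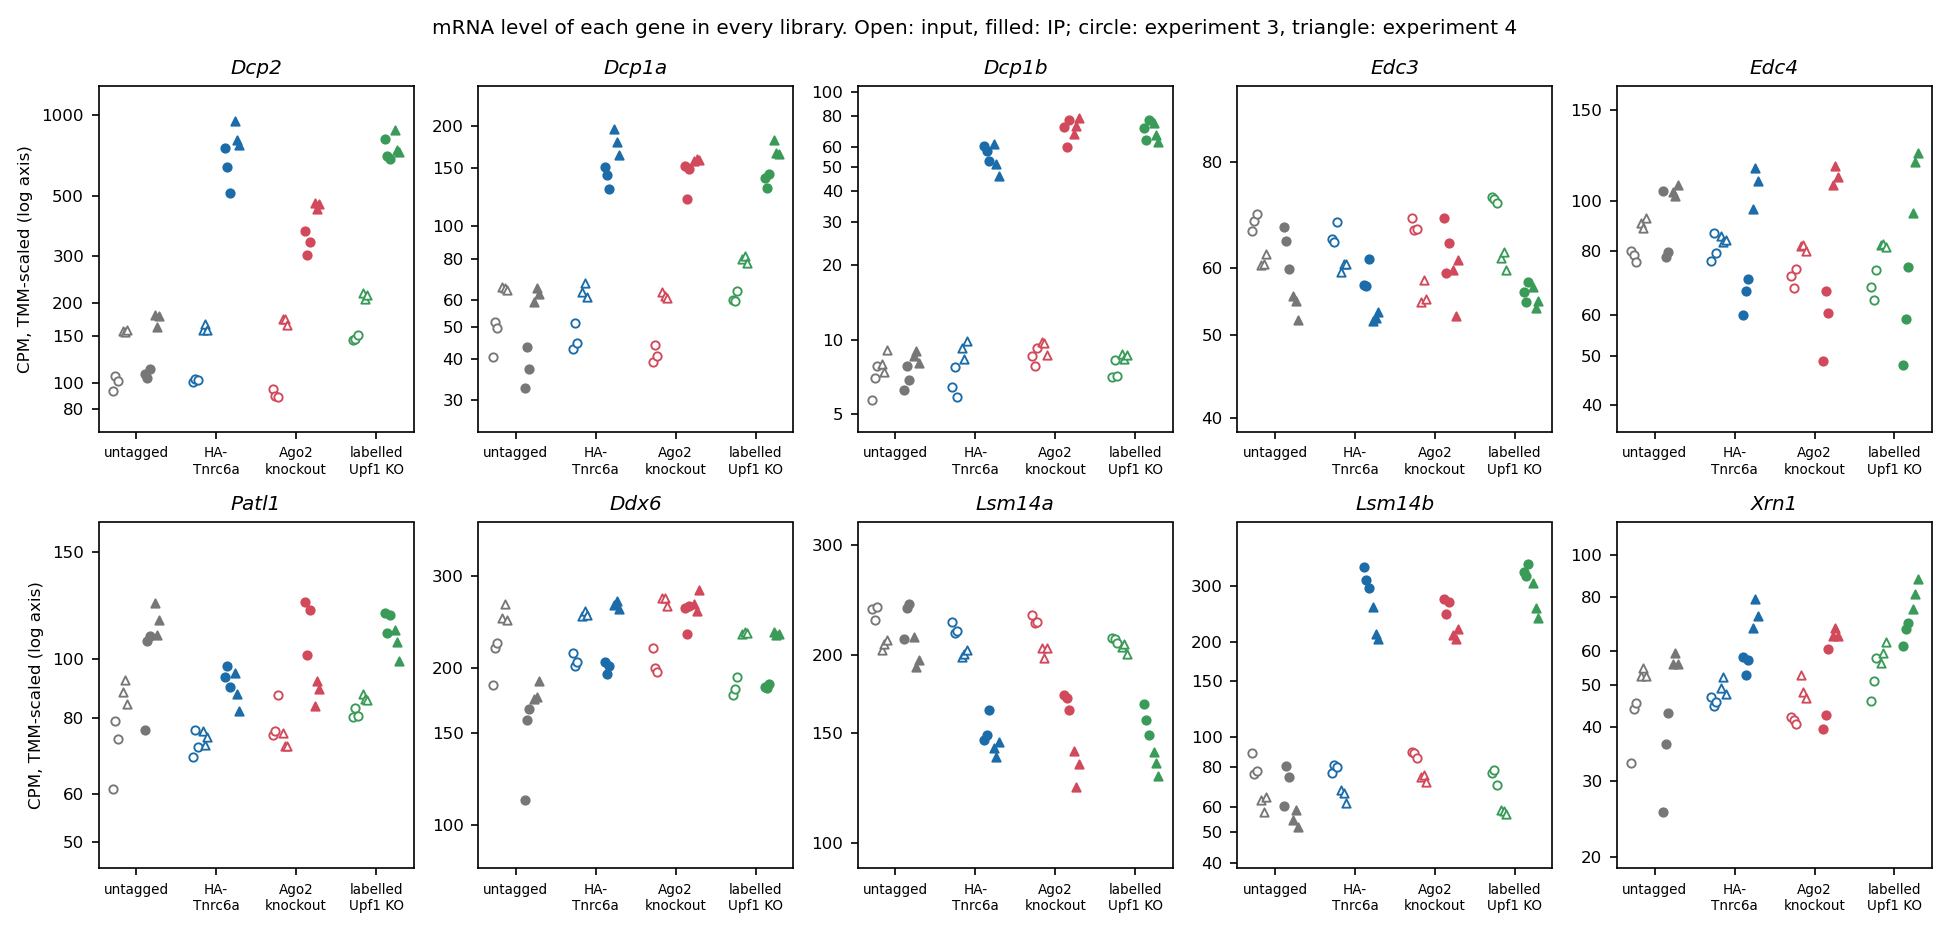
CPM of each mRNA in all 48 libraries (vertical log axes, each with its own range), by genotype. Open symbols are inputs, filled symbols IPs, circles experiment 3 and triangles experiment 4. For Dcp2, Dcp1a, Dcp1b and Lsm14b the filled symbols of the 3 tagged genotypes lie above all untagged and input libraries, and for Lsm14a they lie below them.

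Untagged cells give the background of the beads. Comparing their IPs with their inputs, 7 of the 10 mRNAs passed, where 35.7% of all genes did, 18.0% higher and 17.8% lower. Higher on the beads were Patl1 (0.42 ± 0.08), Edc4 (0.18 ± 0.06) and Dcp2 (0.12 ± 0.05), and lower were Ddx6 (-0.52 ± 0.08), Dcp1a (-0.20 ± 0.07), Lsm14b (-0.18 ± 0.07) and Edc3 (-0.14 ± 0.05). Patl1 and Ddx6 passed without any 1 library, whereas the other 5 were lost without some library. From 2 to 4 of the 10 passed without untagged input library 2, 3, 4, 5 or 6 or untagged IP library 4 or 6. In experiment 3 alone 1 of the 10 passed, and 1972 of 17316 genes. Scaling by library totals, which lowered the median of all genes from -0.03 to -0.20, gave 1 higher and 5 lower, with Dcp2 at -0.05. Of all 19299 genes 1997 were then higher and 7559 lower.

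The same 4 mRNAs led in the other tagged genotypes, which were compared with the same untagged libraries, so the 3 comparisons are not independent. In Ago2 knockout cells 7 of 10 passed (64.7% of all genes, 31.5% higher and 33.2% lower): Dcp1b at 2.96 ± 0.12, Dcp1a at 1.77 ± 0.08, Lsm14b at 1.72 ± 0.08, Dcp2 at 1.54 ± 0.07, Ddx6 at 0.67 ± 0.09, Xrn1 at 0.39 ± 0.14 and Lsm14a at -0.47 ± 0.06. In the cells labelled Upf1 knockout 7 of 10 also passed (63.6% of all genes, 31.8% in either direction): Dcp1b at 3.15 ± 0.11, Lsm14b at 2.42 ± 0.09, Dcp2 at 2.05 ± 0.07, Dcp1a at 1.41 ± 0.08, Ddx6 at 0.59 ± 0.09, Xrn1 at 0.55 ± 0.13 and Lsm14a at -0.40 ± 0.06. Edc3, Edc4 and Patl1 did not pass in either. Xrn1 no longer passed in these 2 comparisons when library totals were used (0.24 and 0.29), which lowered the median of all genes from -0.07 to -0.22 and from -0.06 to -0.32. Dcp2 thus went from the second largest recovery of the 10 in HA-Tnrc6a cells to the fourth in Ago2 knockout cells.

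**Figure D3:**
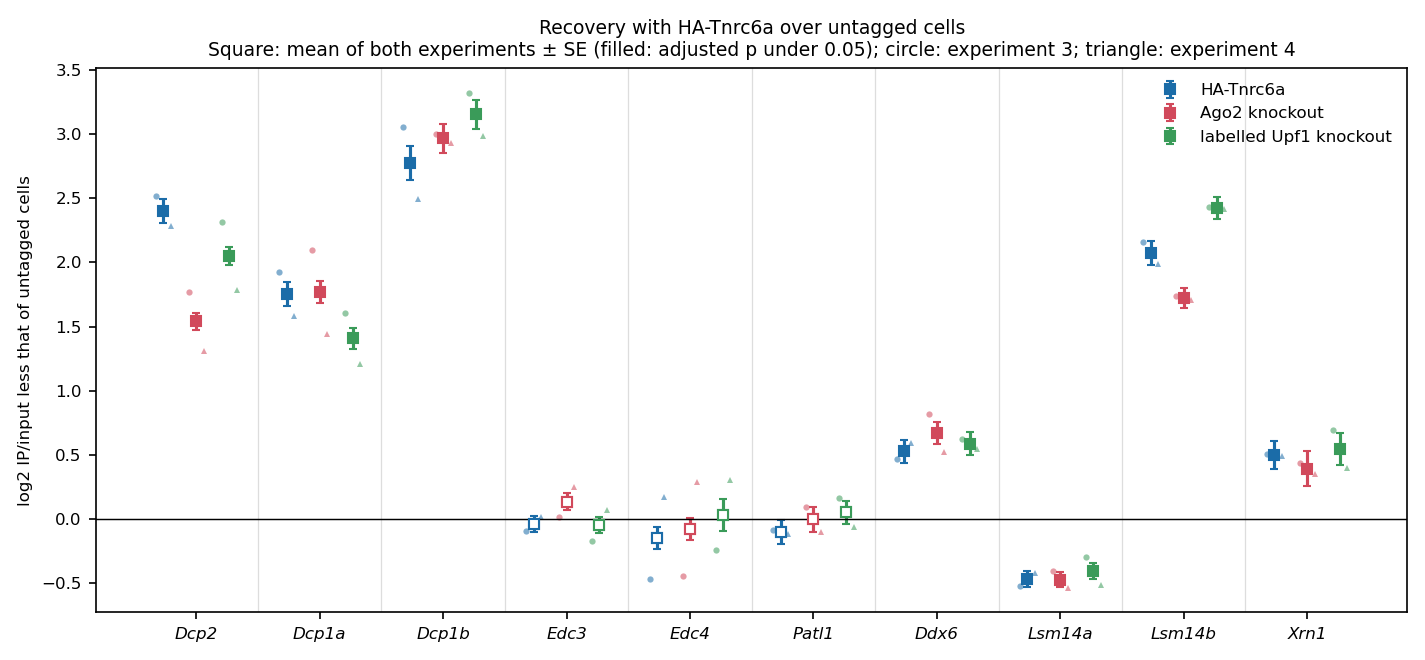
Recovery of each mRNA with HA-Tnrc6a over untagged cells (vertical axis, log2 IP over input less that of untagged cells) in 3 tagged genotypes. Squares are means of both experiments with their SE, filled where the adjusted p was under 0.05, and small symbols are the single experiments. Dcp2, Dcp1a, Dcp1b and Lsm14b have means of 1.41 or more in each genotype, Ddx6 and Xrn1 lie between 0.39 and 0.67 and Lsm14a is below 0.

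Whether recovery depends on Ago2 was addressed by the direct comparison of knockout and HA-Tnrc6a cells, again as IP over input. Of the 10 mRNAs 2 passed, both lower, against 21.3% of all genes, 9.09% higher and 12.3% lower. Dcp2 fell 1.82-fold and Lsm14b 1.28-fold, while the other 4 mRNAs recovered above untagged cells, Dcp1b (0.19 ± 0.11), Dcp1a (0.01 ± 0.08), Ddx6 (0.14 ± 0.06) and Xrn1 (-0.11 ± 0.09), did not pass. The difference for Tnrc6a mRNA itself was 0.11 ± 0.17 as the mean of both experiments and did not pass. In experiment 3 Tnrc6a mRNA averaged 26548 CPM in HA-Tnrc6a and 50535 CPM in Ago2 knockout IPs. In experiment 4 these means were 10684 and 13254 CPM. Its inputs were higher in the knockout in both experiments, 99.2 against 69 CPM and then 125 against 88.2 CPM. By these means its IP over input was higher in the knockout in experiment 3 and lower in experiment 4. Without Ago2 knockout IP library 2, Ddx6 (0.17) and Edc3 (0.20) passed as higher, which made 4 of the 10.

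Dcp2 stood at 369, 303 and 338 CPM in Ago2 knockout IPs of experiment 3 and at 470, 449 and 465 CPM in experiment 4, all below the lowest HA-Tnrc6a IP of 513 CPM. Its inputs in knockout cells were 95.4, 89.7 and 89.0 CPM and then 174, 174 and 165 CPM, close to those of HA-Tnrc6a cells. The recovery fell by 0.86 ± 0.09 on the log2 scale (adjusted p = 5.12e-09), by 0.76 in experiment 3 and by 0.97 in experiment 4. It passed without any 1 of the 24 libraries, and comparing IPs without their inputs gave the same size, -0.86. In Ago2 knockout cells Dcp2 remained well above the untagged background, by the 1.54 given above.

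Lsm14b had 272, 245 and 266 CPM in Ago2 knockout IPs of experiment 3, below the 297 to 346 CPM of HA-Tnrc6a cells. In experiment 4 it had 210, 204 and 220 CPM, within the range of HA-Tnrc6a IPs from 204 to 257 CPM. Its knockout inputs were higher than those of HA-Tnrc6a cells in both experiments without overlap, 85.7 to 89.6 against 76.6 to 81.6 CPM and 72.0 to 75.7 against 61.8 to 68.1 CPM. Recovery fell by 0.36 ± 0.07 (adjusted p = 0.000313), by 0.44 and 0.27 in the 2 experiments. The IPs without their inputs differed by -0.15 (adjusted p = 0.0574), so this call rests on inputs and IPs together. In that comparison of IPs alone, in which 7482 of 18824 genes passed, Dcp1b (0.42), Ddx6 (0.21), Patl1 (0.19) and Edc3 (0.17) passed as higher, and Edc3 also passed over inputs by DESeq2 (0.16, adjusted p = 0.0432).

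In the cells labelled Upf1 knockout, 4 of the 10 mRNAs differed in recovery from HA-Tnrc6a cells, where 4.49% of all genes passed, 2.92% higher and 1.57% lower. Dcp1a (-0.36 ± 0.07, adjusted p = 0.00152) and Dcp2 (-0.36 ± 0.09, adjusted p = 0.0189) were lower, and Dcp1b (0.37 ± 0.10, adjusted p = 0.035) and Lsm14b (0.34 ± 0.08, adjusted p = 0.00582) were higher. Signs agreed between the experiments for all 4. None of the 10 passed in experiment 3 alone, where 162 of 18706 genes did. Scaling by library totals turned the balance over all genes from 65.1% of calls higher to 22.4%, with 1002 of 19966 genes called. It left 3 of the 10, with Lsm14b the higher one.

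For Dcp2 and Dcp1a the inputs and not the IPs separated the genotypes. Dcp2 inputs of the labelled Upf1 knockout had 145, 146 and 151 CPM in experiment 3 and 218, 206 and 213 CPM in experiment 4, above all HA-Tnrc6a inputs of the same experiment. Their IPs had 820, 704 and 690 CPM and then 885, 742 and 733 CPM, overlapping the 513 to 758 and 775 to 954 CPM of HA-Tnrc6a cells. For Dcp1a the IPs had 140, 131 and 144 CPM and then 181, 166 and 165 CPM, within the range of HA-Tnrc6a IPs in both experiments. Without inputs the log2 difference of the IPs was 0.07 for Dcp2 (adjusted p = 0.547) and -0.04 for Dcp1a (adjusted p = 0.668), so neither call was present in the IPs alone. In the IPs alone, where 8805 of 18813 genes passed, 4 of the 10 did, all higher: Dcp1b (0.36, adjusted p = 0.000242), Patl1 (0.30, adjusted p = 0.000135), Xrn1 (0.21, adjusted p = 0.0103) and Lsm14b (0.18, adjusted p = 0.0495). Such a comparison also holds the lysate difference, 0.04 for Dcp1b, 0.20 for Patl1, 0.22 for Xrn1 and -0.12 for Lsm14b. As recovery over inputs, Patl1 (0.14, adjusted p = 0.189) and Xrn1 (0.03, adjusted p = 0.892) did not pass.

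For the pair that was higher, Dcp1b IPs had 71.8, 64.3 and 77.3 CPM and then 75.3, 67.1 and 63.1 CPM, each above all HA-Tnrc6a IPs of the same experiment. As recovery over inputs, the call for Dcp1b was lost in 19 of 24 fits that left out 1 library, although its log2 value stayed between 0.28 and 0.40 in all 24. It was also lost under RLE size factors, library totals, no count filter and 1 fit of all libraries, with adjusted p from 0.0677 to 0.114 in those 4. Lsm14b IPs had 334, 323 and 353 CPM and then 306, 255 and 238 CPM, overlapping HA-Tnrc6a IPs in both experiments. Its call was lost without HA-Tnrc6a input library 3 or 5, HA-Tnrc6a IP library 2 or 5, or labelled Upf1 knockout IP library 4, with log2 values from 0.23 to 0.28, and Dcp1b was lost in the same fits, which left 2 of the 10. The counts of that last library, and of HA-Tnrc6a input library 3, lay furthest from the other libraries of their group.

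**Figure D4:**
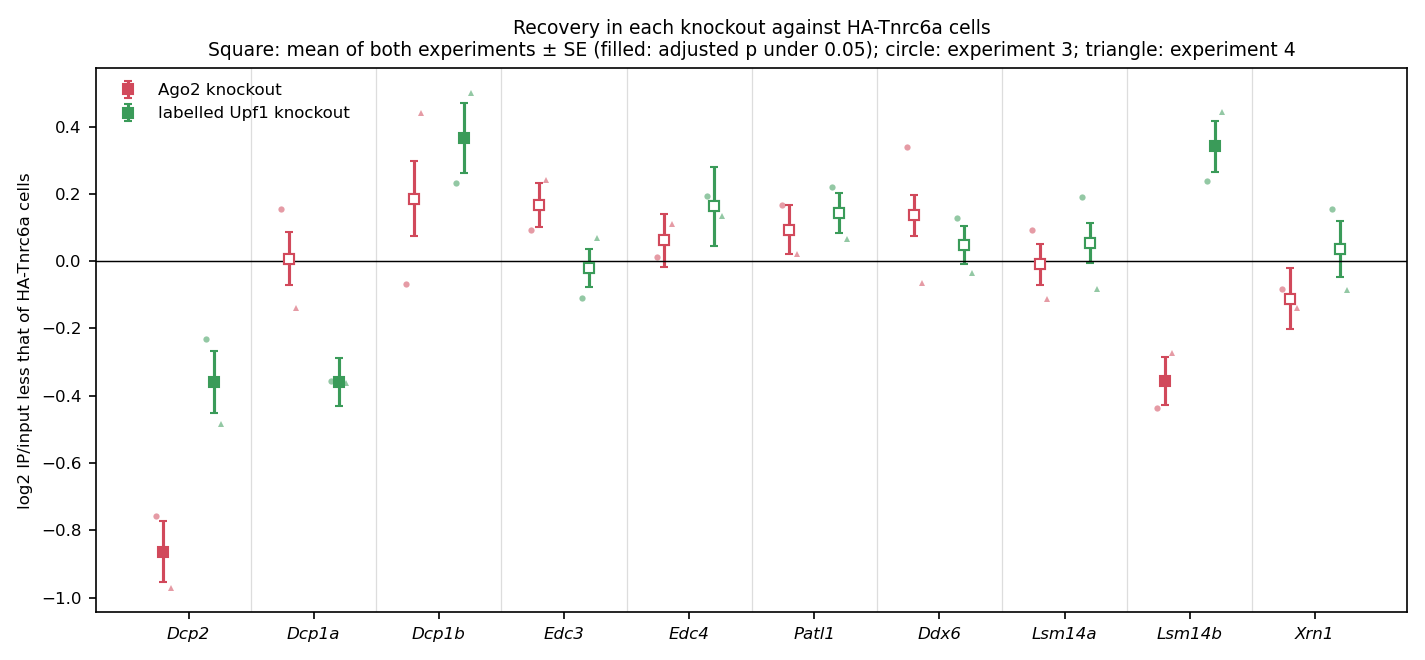
Difference of recovery from that in HA-Tnrc6a cells (vertical axis, log2), for the Ago2 knockout and for the labelled Upf1 knockout. Filled squares passed an adjusted p of 0.05, open squares did not, bars are SE, and small symbols are the single experiments. Dcp2 is below 0 in both, most in the Ago2 knockout at -0.86, and Lsm14b is lower in one and higher in the other.

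The knockouts were also compared with each other, which shares no HA-Tnrc6a library but reuses the knockout libraries above. Recovery differed for 4 of the 10 mRNAs, and for 24.4% of all genes, 10.9% higher and 13.5% lower. Lsm14b (-0.68 ± 0.07, adjusted p = 1.53e-10) and Dcp2 (-0.48 ± 0.07, adjusted p = 1.21e-06) were lower in Ago2 knockout cells than in those labelled Upf1 knockout. Dcp1a (0.39 ± 0.07, adjusted p = 2.22e-05) and Edc3 (0.21 ± 0.06, adjusted p = 0.0113) were higher. In IPs without inputs the Dcp2 difference was -0.97 and that of Lsm14b -0.37, whereas Dcp1a was at -0.06 (adjusted p = 0.388) and Edc3 at 0.11 (adjusted p = 0.0911). The difference for Lsm14b and Dcp2 was therefore present in the IPs, and that for Dcp1a was not. IPs alone also hold the lysate difference, which was -0.50 for Dcp2, 0.29 for Lsm14b and -0.47 for Dcp1a. The IPs alone, in which 10794 of 18886 genes passed, also differed for Xrn1 (-0.41, adjusted p = 0.000386), Patl1 (-0.15, adjusted p = 0.0282) and Ddx6 (0.31, adjusted p = 3.42e-05), which made 1 higher and 4 lower. Scaling by library totals moved the share of higher calls over all genes from 44.6% to 63.4%, with 5114 of 19962 genes called. Of the 10, 5 then passed, 3 higher and 2 lower.

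In the lysates, which show the mRNA level of the cells, tagging changed none of the 10 beyond the threshold: 0 passed between HA-Tnrc6a and untagged inputs by edgeR and 0 by DESeq2, and 2 had an unadjusted p under 0.05, Patl1 (-0.12 ± 0.05) and Lsm14a (-0.07 ± 0.03). Of all genes 15.4% passed, 7.74% higher and 7.67% lower. Without untagged input library 1 these 2 passed, at -0.17 and -0.07.

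Between Ago2 knockout and HA-Tnrc6a inputs 3 of the 10 passed, against 30.9% of all genes (15.7% higher and 15.2% lower), and each change was small. Lsm14b was 1.12-fold higher (0.16 ± 0.03, adjusted p = 5.16e-05). Edc4 (-0.12 ± 0.03, adjusted p = 0.00289) and Dcp1a (-0.11 ± 0.04, adjusted p = 0.0334) were lower. Both were nearer to 0 in experiment 4 (-0.06 for Edc4 and -0.05 for Dcp1a) than in experiment 3 (-0.18 and -0.16). A fit of experiment 4 alone called 3 of the 10, Lsm14b (0.18), Dcp2 (0.09) and Ddx6 (0.08), all higher. That fit called 5270 of 19297 genes, 2806 higher and 2464 lower. Dcp1a no longer passed by DESeq2 (adjusted p = 0.0737) or without HA-Tnrc6a input library 2 or 5 or Ago2 knockout input library 1, 3, 5 or 6. Neither Dcp1a nor Edc4 passed when all 48 libraries shared 1 fit. Dcp2 changed sign between the experiments, from -0.16 in experiment 3 to 0.09 in experiment 4, and averaged -0.04 ± 0.03. The summed endoderm markers were lower in these knockout inputs (4.52 to 5.12 CPM) than in HA-Tnrc6a inputs (13.9 to 20.6 CPM). In inputs labelled Upf1 knockout they ranged from 7.33 to 42 CPM. The part of these markers in the differences was not tested.

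The lysates labelled Upf1 knockout held the larger differences from HA-Tnrc6a cells, with 8 of the 10 past the threshold, but 58.6% of all genes passed there too, 29.5% higher and 29.0% lower. The decapping enzyme and its partner rose most: Dcp2 was 1.38-fold higher (0.47 ± 0.03, adjusted p = 4.66e-21) and Dcp1a 1.29-fold higher (0.36 ± 0.04, adjusted p = 2.75e-12). Dcp1a inputs had 60.3, 59.7 and 64.0 CPM in experiment 3 and 79.7, 81.5 and 77.9 CPM in experiment 4. HA-Tnrc6a inputs had 42.9, 51.1 and 44.5 CPM and then 63.5, 67.7 and 61.4 CPM, so the groups did not overlap within an experiment. Xrn1 (0.22 ± 0.04), Patl1 (0.20 ± 0.03) and Edc3 (0.08 ± 0.03) were higher as well, while Ddx6 (-0.14 ± 0.02), Edc4 (-0.13 ± 0.03) and Lsm14b (-0.12 ± 0.03) were lower. Dcp1b (0.04 ± 0.08) and Lsm14a (-0.01 ± 0.02) did not pass. All 8 passed without any 1 of the 12 libraries. With all 48 libraries in 1 fit 5 passed, without Edc3, Edc4 and Lsm14b, where 9780 of 20170 genes did. DESeq2 left out Edc3 (adjusted p = 0.0516).

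Comparing the lysates of the knockouts, 7 of the 10 differed, where 62.3% of all genes did, 31.4% higher and 30.9% lower. Dcp2 (-0.50 ± 0.03), Dcp1a (-0.47 ± 0.04), Xrn1 (-0.30 ± 0.04), Patl1 (-0.14 ± 0.03) and Edc3 (-0.12 ± 0.03) were lower in Ago2 knockout cells than in those labelled Upf1 knockout, and Lsm14b (0.29 ± 0.03) and Ddx6 (0.18 ± 0.03) were higher. Lsm14b thus had its highest lysate level and its lowest recovery among the tagged genotypes in Ago2 knockout cells.

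The experiments themselves were compared by testing, in each of the 11 comparisons, whether the difference in experiment 4 was unlike that in experiment 3 (an interaction term). Of the 110 values of the 10 mRNAs 9 passed, in 5 comparisons. In lysates these were 1 for Ago2 knockout against HA-Tnrc6a cells (Dcp2, 5.94% of all genes), 1 for the labelled Upf1 knockout against HA-Tnrc6a cells (Edc4, 11.6% of all genes) and 3 between the knockouts (Dcp2, Lsm14a and Patl1, 13.1% of all genes). For recovery over untagged cells 3 passed in the Ago2 knockout (Dcp1a, Dcp2 and Edc4, 6.15% of all genes) and 1 in the labelled Upf1 knockout (Dcp2, 1.68% of all genes). Dcp2 gave 4 of the 9, and for it recovery was higher over untagged cells in each experiment.

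**Figure D5:**
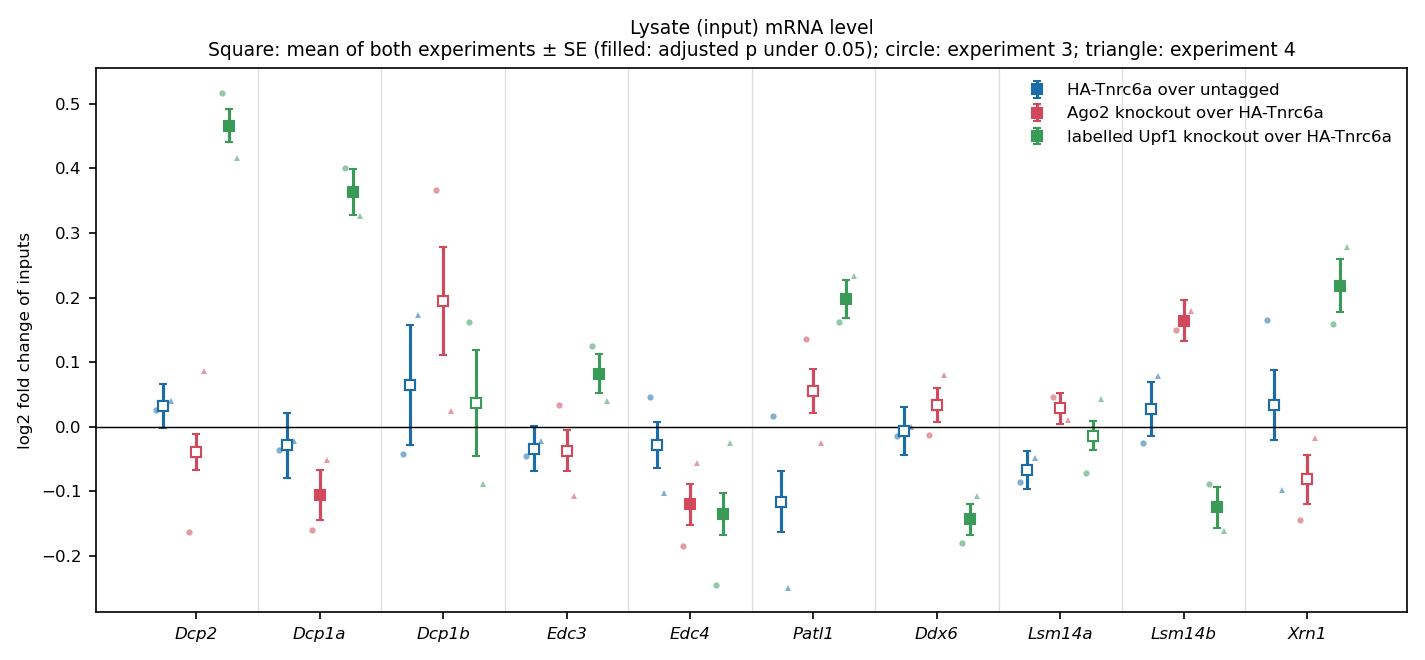
Log2 fold change of each mRNA between inputs (vertical axis) for HA-Tnrc6a over untagged, Ago2 knockout over HA-Tnrc6a and labelled Upf1 knockout over HA-Tnrc6a. Filled squares passed an adjusted p of 0.05, open squares did not, bars are SE and small symbols are the single experiments. Dcp2 and Dcp1a in the labelled Upf1 knockout, at 0.47 and 0.36, are the largest values plotted as squares.

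Other genes of mRNA decay were described from lists of cofactors and enzymes, for which counts, medians and the largest changes among genes that passed are given. Of 21 further genes of decapping and 5' to 3' decay, 7 passed with a higher and 12 with a lower relative recovery in HA-Tnrc6a than in untagged cells. Their median was -0.36. Limd1, a P-body LIM protein, had 2.30 and Pnrc1 1.70, while Lsm5, a subunit of the LSM ring, had -1.08 and Nudt17 -1.01. Of 16 genes of 3' to 5' decay 5 were higher and 10 lower (median -0.46), led by the exosome subunits Exosc1 (2.11) and Exosc4 (1.66) and, among the lower ones, by Exosc8 (-0.99) and Dis3 (-0.87). Of 11 CCR4-NOT subunits 8 were higher and 2 lower (median 0.35), and the paralogous deadenylases Cnot6l (3.81) and Cnot6 (3.55) exceeded all 10 decapping mRNAs. These counts stand beside the 29.8% of all genes that were higher and the 32.2% that were lower, and the medians beside 0.51 for the 10 and -0.10 for all genes.

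In the Ago2 knockout, where recovery changed for 21.3% of all genes, it changed for 12 of the 21 other 5' to 3' genes (4 higher, 8 lower), for 4 of the 16 3' to 5' genes (3 higher, 1 lower) and for 7 of the 11 CCR4-NOT subunits (3 higher, 4 lower). Among the 12 that passed, Wtip (0.46) and Pnrc2 (0.37) were the highest and Nudt3 (-0.53) and Dcps (-0.47), the scavenger decapping enzyme, the lowest. None of these 12 fell as much as Dcp2. Cnot6 (-0.47) and Cnot6l (-0.38) were also lower. In the cells labelled Upf1 knockout, where 4.49% of all genes passed, 1 of the 21 (Lsm2, 0.22), 2 of the 16 (Exosc5, 0.44, and Exosc4, 0.34) and 1 of the 11 (Cnot6, 0.41) passed, all higher. Lsm2 had 0.41 in experiment 3 and 0.04 in experiment 4, and Exosc4 had 0.18 and 0.50. Exosc5 (0.43 and 0.46) and Cnot6 (0.32 and 0.49) differed less between the experiments.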

How the data were processed

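Total RNA of inputs and HA-bead IPs was sequenced with a stranded kit, per the labels' protocols. STAR 2.7.3a, bcl2fastq 2.20 and the builds GRCm38 and mm10 are named in the submitters' processing notes. The annotation and the strand setting of the counting are not given in the sources used here. The authors deposited 1 table, from which the raw count of each gene in each library was used, unscaled and not pooled over replicates. Another 48 per-sample columns of that table were not used. Positions and overlaps come from RefSeq (GRCm38.p6), which held all 10 genes.

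Counts were tested with edgeR 4.0.16 (limma 3.58.1, R 4.3.3): TMM scaling, filterByExpr with a minimum count of 10, a robust quasi-likelihood fit of the groups of a comparison only, contrasts averaged over experiments 3 and 4, two-sided F-tests, and Benjamini-Hochberg adjustment over all genes tested with a threshold of 0.05. All 10 genes passed the count filter in each of the 11 comparisons. The script was tested on simulated data. The SE is the log2 value divided by the square root of F. For the ratios of Ddx6 to its own lysate it comes from the variances of log2 CPM over 3 IPs and 3 inputs. The depth behind the values was 11471544 to 73845953 counts per library, and 78 to 30774 counts per library for a gene of the 10. Without molecular identifiers several reads can come from 1 molecule, and the SE comes from replicates.

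Alternatives were RLE size factors, library totals, no count filter, all 48 libraries in 1 fit, either experiment alone, the replicate block, IPs without inputs, DESeq2 1.42.0, and leaving out each library. No replicates agreed within sampling noise (chi-square per degree of freedom at least 1.956). The text names the 10 genes in each comparison, Tnrc6a, Ago2 and Upf1 as checks, and up to 2 genes per direction of each other list with the largest change among those past the threshold. The 10 genes and the lists were chosen with earlier results of these data known. A description of microRNA seed matches in 3' UTRs was not made, because no UTR sequence was used here.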

Additional observations from a re-analysis of the deposited data

Results flagged for a closer look

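Of the 80 sets of 6 libraries (10 genes, 4 genotypes, 2 fractions), 3 held a library far from the other 5 (Dixon's test at the 95% level). Chance gives about 1 in 20 for libraries of 1 distribution. Each set pools both experiments, whose levels differed for some genes, so that rate is only a guide. Dcp1a in the IPs of Ago2 knockout cells was lowest in library 2, at 121 CPM. Patl1 was highest at 87.1 CPM in Ago2 knockout input library 3, and lowest at 76.2 CPM in untagged IP library 1. Untagged input library 1 was also the lowest of its set for Patl1, at 61.0 CPM.

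Of 110 differences between the experiments (experiment 4 less experiment 3, an interaction tested by edgeR with Benjamini-Hochberg adjustment over all genes), 9 passed. For Dcp2 the lysate difference of Ago2 knockout from HA-Tnrc6a cells was 0.25 higher on the log2 scale in experiment 4, and that from the cells labelled Upf1 knockout 0.33 higher. In the latter comparison Lsm14a differed by -0.17 and Patl1 by -0.25. The lysate difference of Edc4 between the labelled Upf1 knockout and HA-Tnrc6a cells was 0.22 higher in experiment 4. Recovery in Ago2 knockout over untagged cells differed by -0.65 for Dcp1a, by -0.46 for Dcp2 and by 0.73 for Edc4, and recovery of Dcp2 in the labelled Upf1 knockout over untagged cells by -0.52. For Dcp1a and Dcp2 both experiments kept the same direction over untagged cells, and Edc4 changed sign.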

How the results depend on the processing

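Over 940 values of single genes under alternatives other than leaving out a library, 858 kept their side of the threshold and were not reversed when called, 43 lost and 34 gained a call, and 5 reversed. Over 2040 values without 1 library the numbers were 1951, 65, 24 and 0. The reversed values were Dcp2 in lysates of Ago2 knockout against HA-Tnrc6a cells in experiment 4 alone (0.0905), Dcp2 on untagged beads with library totals (-0.0478), Edc4 recovered from Ago2 knockout over untagged cells in experiment 4 alone (0.22), and, with IPs compared without inputs, Dcp2 in the labelled Upf1 knockout (0.0687) and Dcp1a between the knockouts (-0.0613). The last 2 hold no input by construction, and the cause of the others was not tested. The authors' scaled columns as library factors were planned and not run, since 1 measure per library was used.

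Of the counts of the 10 genes that passed, those of lysates with all 48 libraries in 1 fit were 1 for the Ago2 knockout and 5 for the labelled Upf1 knockout. Of all 20170 genes 3902 and 9780 passed in these 2 fits. Between HA-Tnrc6a and untagged lysates 2 passed in experiment 4 alone, where 4193 of 19304 genes did, and 0 to 2 without 1 library. On untagged beads 1 passed in experiment 3 alone, where 1972 of 17316 genes did, and 2 to 7 without 1 library. For changed recovery in the Ago2 knockout 4 passed in experiment 4 alone, 5 with IPs without inputs, and 2 to 4 without 1 library. Of all genes 3463 of 19810 passed in experiment 4 alone and 7482 of 18824 with IPs without inputs. In the labelled Upf1 knockout 0 passed in experiment 3 alone, where 162 of 18706 genes did, and 2 to 4 without 1 library. Same-numbered libraries correlated in their deviations from the group mean by 0.0978 on average (-0.292 to 0.674, over 0.1 in 40 of 96 pairs). The mean was 0.0689 between inputs of different genotypes, 0.123 between IPs and 0.104 between an input and its IP, with values under 0 in each of these sets. The numbers were not taken to pair the libraries, since not every pair was over 0.1, a rule that is not a test of pairing. Between input and IP, 10 of 24 pairs were over 0.1, with 0.509, 0.263 and 0.317 in untagged cells of experiment 3. The replicate block was shared by all genotypes and fractions of an experiment. A pairing of each input with its IP within a genotype was therefore not fitted. With the replicate block 1 of the 10 passed between HA-Tnrc6a and untagged lysates (Patl1, -0.11), against 0 without it. With it 3350 of 19407 genes passed there, and no other count of the 10 moved by over 1.5 times. For Dcp1b, which had the fewest counts, the SE was 0.08 to 0.13, and differences of that size were not detectable.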
